A study of Mus musculus with 22 samples.

Results

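Heat-shock chaperones of the cytosol and the mitochondria were followed around the day in the livers of male mice that lack adiponectin. The 37 genes named for the set were looked up by symbol in the array annotation, and 33 of them had a feature, out of 22206 features that named 19505 distinct genes. Each of the 33 had 1 feature. Hspa8, Dnaja1, Hsp90ab1 and Hsf1 were not analysed here. The set held 5 measured HSP70 genes, 4 genes of HSP110 proteins and nucleotide exchange, 7 J-domain genes, 7 genes of HSP90 proteins and their co-chaperones, 7 chaperonin genes, 2 small heat-shock protein genes and the heat-shock factor gene Hsf2.

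All mice carried the Adipoqtm1Chan allele, a global knockout of the fat-cell hormone adiponectin on a C57BL/6J background, and were 3 to 8 months old, group-housed and fed chow ad libitum in a light cycle of 12 h on and 12 h off. The 22 liver arrays (Clariom S) carry a zeitgeber time (ZT, in hours after lights on), with 4 arrays each at ZT2, ZT10, ZT14 and ZT22 and 3 each at ZT6 and ZT18, and a letter tells the arrays of a time apart (ZT14c). Livers of wild-type mice were not analysed here, and nothing below measures an effect of the knockout. Each array was taken as 1 mouse, so a p-value reflects the spread between arrays and no other source of error. That spread is taken within a time. In the 24 h test below it is taken around the fitted cosine, where misfit of the time means adds to it. Values are the deposited log-scale expression values, taken as log2 because the base is not stated. Levels of different genes are not compared, since each rests on its own probes.

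Chaperones bind unfolded stretches of other proteins and help them fold, stay soluble or reach the machinery that degrades them. HSP70 proteins hold and release clients in cycles of ATP hydrolysis, which J-domain proteins start and nucleotide exchange factors such as HSP110 end, while HSP90 acts later with a crew of co-chaperones and the barrel-shaped chaperonins enclose whole proteins. When proteins unfold, the factor HSF1 binds heat-shock elements, inverted repeats of a short unit, in the promoters of many of these genes, and in liver such genes are known to follow the daily cycles of feeding and body temperature.

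The promoters of the members were read to show which of them carry such an element, because members with and without it are described side by side below. A 2-unit element was searched as GAANNTTC or TTCNNGAA, and a 3-unit element as GAANNTTCNNGAA or TTCNNGAANNTTC, on both strands, from 250 bases before to 50 after each RefSeq start (assembly GRCm38.p6), and every 3-unit element holds overlapping 2-unit elements. Of 27025 genes with such a window 17% held a 2-unit element and 0.662% a 3-unit element. Of the 32 members with a window 16 (50%) held the first and 5 (15.6%) the second: Chordc1, Dnajb6, Hspd1, Hspe1 and Hsph1. Windows of Hspd1 and Hspe1, which lie on opposite strands, overlap and hold the same elements, so these are counted for both genes. The E-box CACGTG, the element of the clock activators, stood in 8.09% of all genes and in 3 members, Hsf2, Hspd1 and Hsph1. A match is a run of letters, not a shown binding site. The stretches below show different layouts of the element, and they are not a ranking. Those of the neighbours Hspa1a and Hspa1b and of Hsph1 show a single element, that of Hspb1 a spaced pair, and those of Dnajb6 and Chordc1 overlapping ones. The window of Hsph1 holds 3 elements of 2 units, and its stretch ends before the others. Hspe1 is added as a mitochondrial member with several elements and a level that was not called at any comparison. The capitals mark the elements, 5′ to 3′ on the gene's strand.
Hspa1a (chr17:34972231-34972286, minus strand): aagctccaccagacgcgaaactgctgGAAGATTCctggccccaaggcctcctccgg
Hspa1b (chr17:34959313-34959368, minus strand): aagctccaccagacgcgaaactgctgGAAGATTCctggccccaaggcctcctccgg
Hsph1 (chr5:149636340-149636391, minus strand): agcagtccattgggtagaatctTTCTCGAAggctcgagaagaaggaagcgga
Hspb1 (chr5:135887782-135887853, plus strand): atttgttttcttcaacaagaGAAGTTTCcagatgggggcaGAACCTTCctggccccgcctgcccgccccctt
Dnajb6 (chr5:29735833-29735883, plus strand): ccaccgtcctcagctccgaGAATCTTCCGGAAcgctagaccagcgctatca
Chordc1 (chr9:18292259-18292288, plus strand): accgGAACGTTCGGGAAAATTCCTGAAgca
Hspe1 (chr1:55088053-55088082, plus strand): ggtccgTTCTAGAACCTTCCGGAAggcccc
Hspa1a and Hspa1b share the printed stretch letter for letter, and their windows differ in 4 of 300 bases. Their transcripts are near-identical as well, so the probes of one may also read the other. The stretch of Chordc1 spans its start and carries 4 overlapping 2-unit elements in 3 overlapping 3-unit ones.

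The arrays were alike in scale, with medians between 5.28 and 5.36, and the lower quartile of an array lay between 3.67 and 3.91, a level that cannot be told from background. The mean of 5 hepatocyte markers (Alb, Ttr, Apoa1, Serpina1c and Tat) lay between 19.14 and 19.49 in every array, as the tissue label has it. Adipoq lay between 3.30 and 4.69. In 5 arrays, ZT6b, ZT6c, ZT14b, ZT14d and ZT22a, the secreted peptide gene Tff3 measured between 10.35 and 13.63, against 2.31 to 4.73 in the other 17, and the counts below are also given without these 5, which leaves a single array at ZT6. In bulk liver, fewer cells of a type and less RNA per cell cannot be told apart.

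Most members had their highest mean early or midway in the dark phase, though fewer than that passed a test of difference between times. Of the 33 members 20 had their highest time mean at ZT14 and 8 at ZT18, while 15 had their lowest at ZT10. Over all features 3682 of 22206 had their highest mean at ZT14 and 3603 at ZT18. The time of the lowest mean was not counted over all features, so the 15 members have no share beside them. Without the 5 Tff3-high arrays the highest mean fell at ZT14 in 18 members and at ZT18 in 11. A 24 h rhythm, tested in limma by fitting a cosine and sine with a period of 24 h and adjusted over all features, was called for 13 of 33 members (39.4%), against 7.62% of all features. The called members were Hspa1a, Hspa2, Hspa4l, Hsph1, Bag3, Dnajb4, Dnajb6, Hsp90aa1, Stip1, Chordc1, Fkbp4, Tcp1 and Hspb1, with fitted peaks from ZT12.4 to ZT19.4 and fitted spans from trough to peak of 1.55-fold to 5.72-fold. The median span over all 33 was 1.57-fold, against 1.24-fold over all features. These shares and spans are not like for like, since the members were chosen with earlier results of these data known. All features also include those near background, while the members lay at percentiles 44.9 to 98.3 of mean level. A single cosine fits a short rise poorly, and limma's F test of any difference among the 6 times called 16 members, against 6.14% of all features. It added Hspa1b, Dnajb1, Ahsa1, Cacybp and Hspb8 and did not call Dnajb6 and Tcp1, so that 11 members passed both tests. Limma called 0 of the 5 mitochondrial members in either test (0 at an unadjusted p under 0.05). So few genes cannot be told apart from the shares over all features, and the compartments were not compared by a test. The 24 h count was 12 without the 5 Tff3-high arrays, where Dnajb6 was lost, and 7 with ranks in place of values. Without the 5 Tff3-high arrays the test of any difference no longer called Hspa1a, Hspa2, Dnajb1, Ahsa1 and Hspb8, and it added no member to the 16. That fit has fewer arrays and only 1 at ZT6, and the part of this in the lost calls was not tested. Counts without these arrays, here and below, and the count of 7 on ranks have no share of all features beside them. Whether they fell with that share cannot be read from them.

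**Figure D1:**
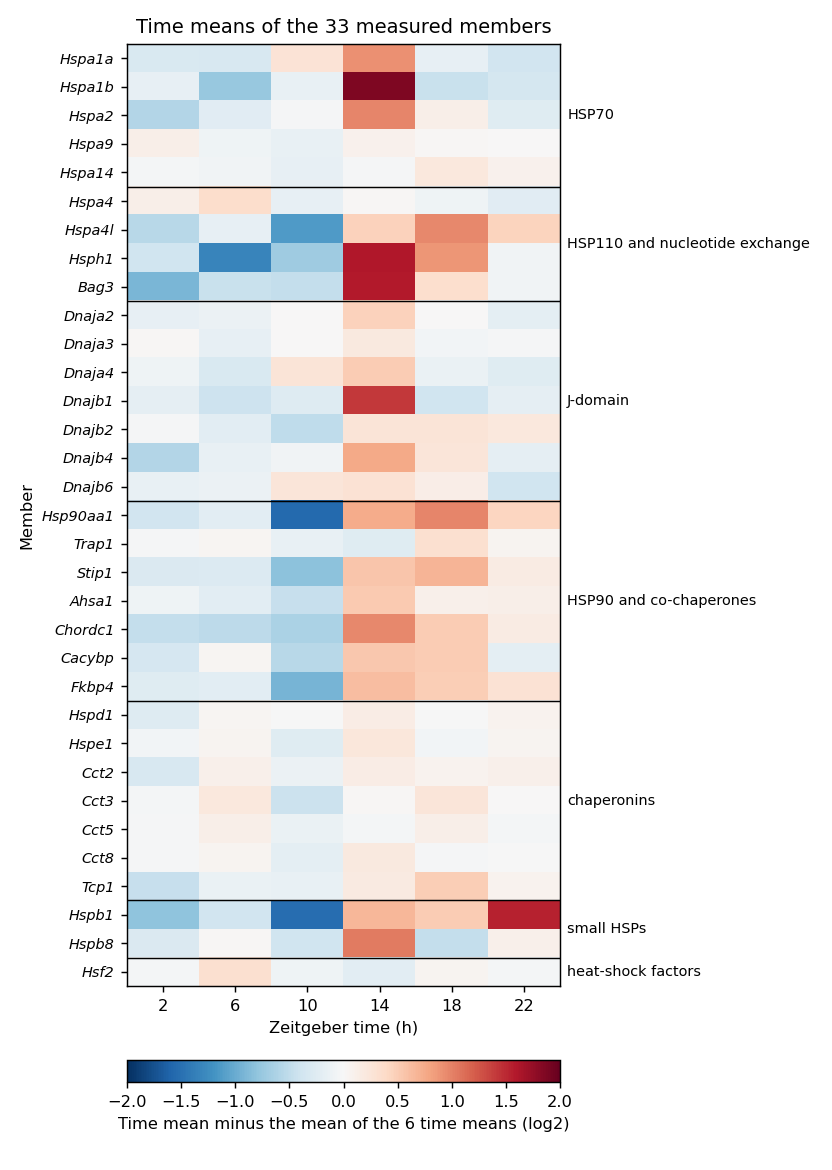
Time means of the 33 measured members (rows, grouped by role) at the 6 zeitgeber times (columns), each as the difference in log2 units from the mean of that gene's 6 time means, red above and blue below. The ZT14 column is the highest for 20 members and the ZT10 column the lowest for 15, and the rows of the chaperonins are pale.

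The inducible HSP70 genes were highest at ZT14. Hspa1b, which encodes the classical stress-inducible HSP70, measured 9.18, 8.90, 7.13 and 8.81 in the ZT14 arrays a to d. It measured 6.27, 6.63, 6.55 and 6.43 at ZT2, 6.10, 5.54 and 6.01 at ZT6, 6.92, 6.06, 6.69 and 6.28 at ZT10, 6.13, 6.05 and 6.38 at ZT18, and 6.32, 6.43, 5.92 and 6.51 at ZT22. All 4 ZT14 arrays lay above every other array, ZT14c by little and the other ZT14 arrays by far. Such gaps between groups of arrays, here and below, were not counted over all features, so they have no share beside them. The means were 6.49 ± 0.39 at ZT10, 8.51 ± 0.93 at ZT14 (SD, n = 4 each) and 6.19 ± 0.17 at ZT18 (SD, n = 3). ZT14 was 4.10-fold above ZT2 (log2 difference 2.04 ± 0.30 SE, adjusted p = 9.87e-05). The 24 h cosine was not called (adjusted p = 0.0540), a value that lay between 0.0324 and 0.137 in the 22 fits without 1 array, with a call without any 1 of ZT2b, ZT2c, ZT10b, ZT10d, ZT18a, ZT18b and ZT18c.

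Hspa1a, the neighbouring copy, measured 7.28, 7.79, 6.63 and 7.33 at ZT14, 6.12, 5.75, 6.30 and 5.97 at ZT2, and 6.71, 6.94, 6.46 and 6.37 at ZT10. The ZT14 arrays lay above all ZT2 arrays, whereas ZT14c lay within the ZT10 range. Its fitted span was 2.19-fold with a peak at ZT13.1 ± 0.740 h (SE, adjusted p = 0.00159), and ZT14 was 2.33-fold above ZT2 (1.22 ± 0.21 SE, adjusted p = 0.000572). Hspa1a and Hspa1b had a Pearson correlation of 0.85 over the 22 arrays, and because their sequences are so close the values of the pair may not be independent. Hspa2, a testis-enriched HSP70, rose from 4.29 ± 0.33 (SD, n = 4) at ZT2 to 5.86 ± 0.42 (SD, n = 4) at ZT14 (2.97-fold, adjusted p = 0.00181; 24 h span 2.42-fold, adjusted p = 0.00735). Its level is near the low end of the scale, so the fold is uncertain. Hspa14, a ribosome-bound HSP70, lay between 7.59 and 8.56 in all arrays and was not called for a rhythm (adjusted p = 0.564).

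**Figure D2:**
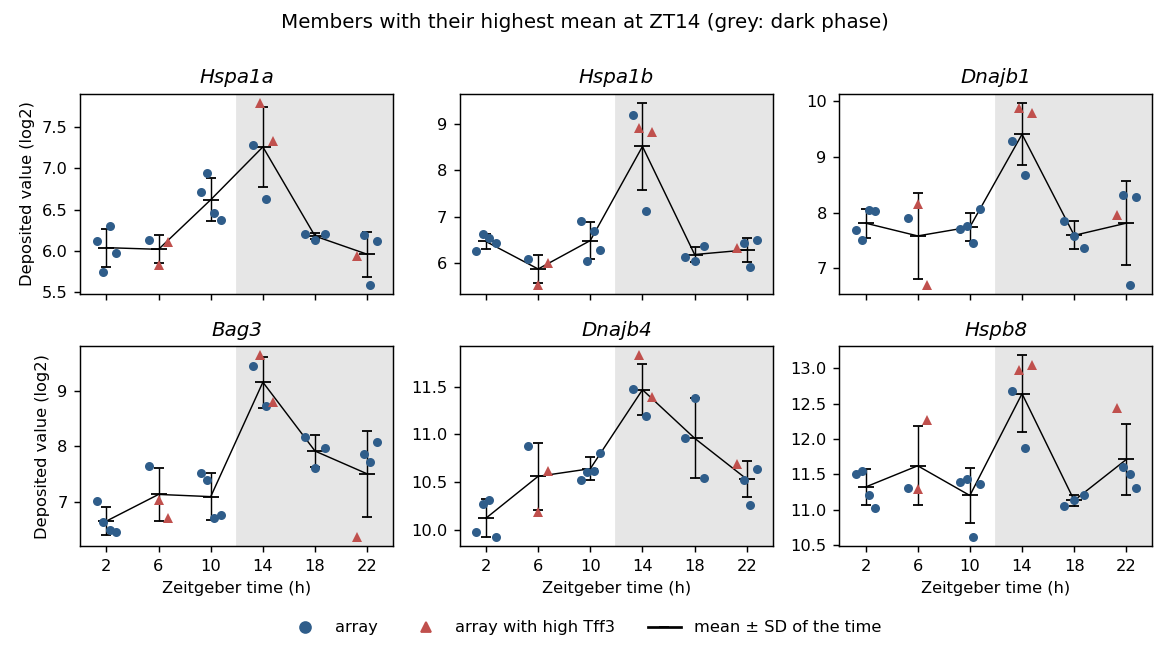
Deposited log2 values of 6 members by zeitgeber time, 1 point per array, with the mean and SD of each time; triangles mark the 5 arrays with high Tff3 and grey the dark phase. For Hspa1b, Dnajb1 and Bag3 all 4 ZT14 arrays lie above every other array, and ZT14c is the lowest ZT14 array in 9 of the 12 members called between ZT14 and ZT2. Such gaps were not counted over all features.

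Of the 4 genes of HSP110 proteins and BAG3, which end the HSP70 cycle by releasing its nucleotide, Hsph1, Bag3 and Hspa4l were called rhythmic and Hspa4 was not. Hsph1, which encodes HSP105, measured 12.49, 12.83, 11.87 and 13.02 at ZT14 and 11.62, 12.00 and 11.86 at ZT18. It measured 10.15, 11.93, 10.80 and 9.34 at ZT2, 9.76, 8.60 and 10.52 at ZT6, between 9.77 and 10.58 in the 4 ZT10 arrays, and 10.14, 10.92, 11.12 and 11.33 at ZT22. The ZT14 and ZT18 arrays were the high ones, with ZT2b alone among the others reaching their range. The fitted span was 5.67-fold, with a peak at ZT16.8 ± 0.618 h (SE, adjusted p = 0.00114). ZT14 was 3.99-fold above ZT2 (2.00 ± 0.42 SE, adjusted p = 0.00465), which was not called without the 5 Tff3-high arrays (1.62, adjusted p = 0.0633).

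Bag3, a nucleotide exchange factor that links HSP70 clients to autophagy, measured 9.44, 9.63, 8.72 and 8.80 at ZT14, 8.17, 7.60 and 7.97 at ZT18, and 6.36, 7.86, 7.72 and 8.08 at ZT22. In the light it measured 7.01, 6.63, 6.49 and 6.46 at ZT2, 7.65, 7.03 and 6.70 at ZT6, and 7.52, 7.39, 6.70 and 6.76 at ZT10. Every ZT14 array lay above every other array. ZT14 was 5.66-fold above ZT2 (2.50 ± 0.31 SE, adjusted p = 8.84e-06), the largest of the 33 differences between these times, and the value was 2.43 without the Tff3-high arrays (adjusted p = 1.57e-05). The fitted 24 h span was 4.09-fold with a peak at ZT15.6 (adjusted p = 0.000968).

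Hspa4l, an HSP110 relative, stayed high through the dark phase, with 9.39, 9.91, 9.31 and 9.81 at ZT14, 9.86, 10.31 and 10.17 at ZT18, and 9.67, 9.11, 9.97 and 9.64 at ZT22. In the light it measured 8.12, 9.17, 9.18 and 7.92 at ZT2, 8.41, 8.57 and 10.03 at ZT6, and 8.14, 7.74, 8.10 and 8.09 at ZT10. All ZT10 arrays lay below all dark-phase arrays, while ZT2b, ZT2c and ZT6c reached the dark-phase range. The fitted span was 3.32-fold with a peak at ZT18.7 (adjusted p = 0.00411), and 4.66-fold without the Tff3-high arrays, of which ZT6c is one. Hspa4, the closest relative of Hspa4l, lay between 13.45 and 14.48 and was not called (1.25-fold, adjusted p = 0.437). The relatives of 1 family thus gave different calls, and the difference between their rhythms was not tested.

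Of the 7 J-domain genes, whose products stimulate the ATPase of HSP70, Dnajb4 and Dnajb6 were called rhythmic. Dnajb1, the J-domain partner induced together with Hspa1a and Hspa1b under heat, measured 9.29, 9.88, 8.67 and 9.79 at ZT14, and its other arrays ranged from 6.70 to 8.31. The ZT14 arrays did not overlap with any other array. ZT14 was 3.02-fold above ZT2 (1.59 ± 0.33 SE, adjusted p = 0.00391; 1.16 and adjusted p = 0.0935 without the Tff3-high arrays), while the 24 h cosine was not called (adjusted p = 0.169).

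Dnajb4 measured 11.48, 11.83, 11.19 and 11.39 at ZT14 and 9.97, 10.27, 10.31 and 9.92 at ZT2, 2 groups that did not overlap. Its span was 2.18-fold with a peak at ZT14.7 (adjusted p = 0.000519), and ZT14 was 2.56-fold above ZT2 (adjusted p = 7.49e-05). Dnajb6, a suppressor of aggregation, spanned 1.55-fold with a peak at ZT12.4 and means from 12.59 ± 0.36 (SD, n = 4) at ZT22 to 13.29 ± 0.23 (SD, n = 4) at ZT14. Its adjusted p of 0.0387 lay between 0.0300 and 0.0741 in the fits without 1 array, and the call was lost without any 1 of ZT2c, ZT10a, ZT10b, ZT14a, ZT14b, ZT14c, ZT18b, ZT22a, ZT22b and ZT22d. Dnaja2, Dnaja3, Dnaja4 and Dnajb2 were not called for a rhythm (adjusted p from 0.0892 for Dnajb2 to 0.849 for Dnaja3), with spans of 1.12-fold to 1.65-fold.

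All 6 cytosolic members of the HSP90 group were lower at ZT10 than at ZT14. Hsp90aa1, the stress-inducible cytosolic HSP90, measured 12.79, 12.78, 12.97 and 13.49 at ZT10. It measured 15.32, 15.31, 15.22 and 15.35 at ZT14, 15.46, 15.61 and 15.52 at ZT18, and 14.69, 14.66, 15.56 and 15.04 at ZT22. In the early light it was spread out, with 14.12, 15.09, 14.55 and 12.97 at ZT2 and 14.68, 13.09 and 15.24 at ZT6. All dark-phase arrays lay above all ZT10 arrays, and the ZT2 and ZT6 arrays lay between 12.97 and 15.24. The SD was 0.90 at ZT2 and 1.12 at ZT6 but 0.06 at ZT14 and 0.08 at ZT18. The fitted span was 4.05-fold with a peak at ZT19.0 ± 0.745 h (SE, adjusted p = 0.00814), and ZT22 was 3.94-fold above ZT10 (1.98 ± 0.37 SE, adjusted p = 0.00174).

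The co-chaperones Stip1 and Fkbp4 were called rhythmic too. Stip1, which hands clients from HSP70 to HSP90, measured 12.80, 12.70, 12.84 and 12.69 at ZT14 and 11.64, 11.16, 11.03 and 11.73 at ZT10, without overlap. Its span was 2.47-fold with a peak at ZT18.2 (adjusted p = 0.0104), and its correlation with Hsp90aa1 over the 22 arrays was 0.94, or 0.87 after each time mean was subtracted. Fkbp4, the immunophilin of steroid receptor complexes, had means of 11.01 ± 0.17 at ZT10, 12.55 ± 0.21 at ZT14 and 12.23 ± 0.06 at ZT22 (SD, n = 4 each). Its span was 2.42-fold with a peak at ZT18.6 (adjusted p = 0.00566).

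Chordc1, an HSP90-binding zinc protein with the cluster of elements printed above, measured 10.87, 11.43, 10.99 and 11.63 at ZT14, 11.11, 10.66 and 10.58 at ZT18, and 10.30, 10.53, 10.37 and 10.52 at ZT22. In the light all its arrays lay between 9.13 and 10.24, below every dark-phase array. The span was 2.94-fold with a peak at ZT17.1 ± 0.552 h (SE), and its adjusted p of 0.000333 was the lowest of the members. Ahsa1, which speeds the ATPase of HSP90, measured 11.75, 11.53, 11.62 and 11.86 at ZT14, above every other array (10.36 to 11.49). Ahsa1 and Cacybp, a co-chaperone that also binds a ubiquitin ligase, were called by the test of any difference (adjusted p = 0.0209 and 0.00141) and not by the 24 h test (adjusted p = 0.103 and 0.0660). Trap1, the mitochondrial HSP90, was the 1 member of this group that neither test called (24 h adjusted p = 0.531).

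**Figure D3:**
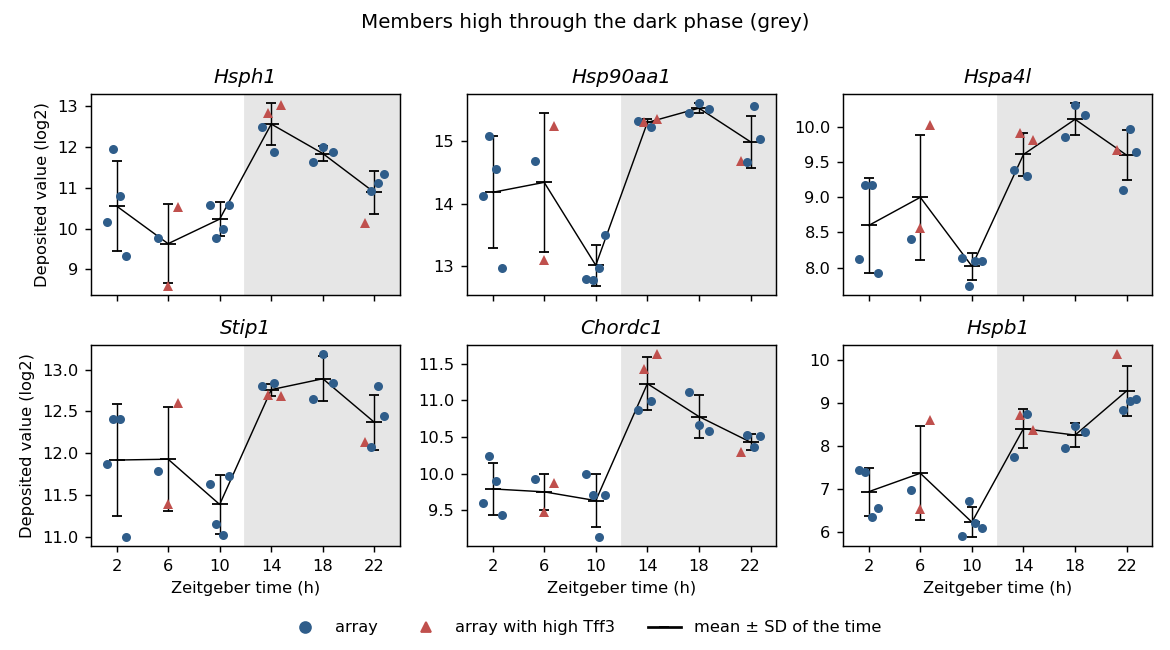
Deposited log2 values of 6 members by zeitgeber time, 1 point per array, with the mean and SD of each time; triangles mark the 5 arrays with high Tff3 and grey the dark phase. Hsp90aa1 lies between 12.78 and 13.49 at ZT10 and between 14.66 and 15.61 in the dark phase, and Hspb1 has its highest mean at ZT22.

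The small heat-shock proteins, holdases that keep unfolded proteins soluble without ATP, had their highest means at ZT22 for Hspb1 and ZT14 for Hspb8, and the difference in timing was not tested. Hspb1, which encodes HSP27 (called HSP25 in mice), measured 10.14, 8.85, 9.06 and 9.10 at ZT22, 7.76, 8.73, 8.75 and 8.39 at ZT14, and 7.96, 8.48 and 8.34 at ZT18. In the light it measured 7.45, 7.39, 6.36 and 6.57 at ZT2, 6.97, 6.53 and 8.62 at ZT6, and 5.91, 6.72, 6.20 and 6.09 at ZT10. The ZT22 arrays lay above all others, and ZT6c stood in the dark-phase range. The span was 5.72-fold with a peak at ZT19.4 ± 0.648 h (SE, adjusted p = 0.00177), the largest of the set, and ZT22 was 8.33-fold above ZT10 (3.06 ± 0.36 SE, adjusted p = 5.92e-06).

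Hspb8, the partner of BAG3, measured 12.68, 12.97, 11.87 and 13.04 at ZT14, 11.50, 11.55, 11.21 and 11.03 at ZT2, and 11.05, 11.13 and 11.20 at ZT18. The ZT14 arrays lay above those of ZT2 and ZT18, but 2 arrays of other times, ZT6c (12.27) and ZT22a (12.44), reached their range, and both are Tff3-high arrays. ZT14 was 2.49-fold above ZT2 (1.32 ± 0.28 SE, adjusted p = 0.00467), and without the Tff3-high arrays the difference was 0.95 (adjusted p = 0.0603). The part that whatever sets these arrays apart has in the result was not tested.

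None of the mitochondrial members passed a test of time, and of the chaperonins Tcp1 alone did. The mitochondrial chaperonin pair Hspd1 (HSP60) and Hspe1 (HSP10), the mitochondrial HSP70 Hspa9, Trap1 and the mitochondrial J-domain gene Dnaja3 had fitted spans of 1.12-fold to 1.23-fold, and limma called 0 of these 5 for a rhythm (lowest adjusted p 0.531), for a difference among times or in any contrast (at an unadjusted p under 0.05, 1 was higher at ZT14 than at ZT10 and 1 at ZT18 than at ZT14). Hspd1 measured 15.21, 15.63, 15.18 and 15.74 at ZT14 and 14.92, 15.09, 15.42 and 14.68 at ZT2, and the groups overlapped. Hspe1, whose promoter holds 3-unit elements, measured 10.69, 10.73, 10.74 and 10.88 at ZT14 and 10.44, 10.46, 10.33 and 10.64 at ZT2. These Hspe1 groups did not overlap, but the difference was 1.22-fold (0.29 ± 0.18 SE, adjusted p = 0.471). A miss of the threshold does not show that these levels were constant.

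Of the cytosolic CCT ring, the chaperonin that folds actin and tubulin, 5 subunits were measured, and Cct2, Cct3, Cct5 and Cct8 were not called for a rhythm (spans 1.06-fold to 1.24-fold, adjusted p from 0.523 to 0.949). Tcp1, the subunit CCT1, measured 10.60, 10.78 and 10.57 at ZT18 and 9.47, 10.04, 9.94 and 9.33 at ZT2. These times were picked as those of its highest and lowest means. The test of any difference did not call Tcp1 (adjusted p = 0.0853). Its span was 1.69-fold with a peak at ZT16.8 (adjusted p = 0.0367). That value lay between 0.0168 and 0.0884 in the fits without 1 array, and the call was lost without any 1 of ZT2a, ZT2d, ZT6b, ZT14b, ZT14d, ZT18a, ZT18b and ZT18c. Hsf2, a relative of the heat-shock factor HSF1, lay between 9.43 and 10.73 and was not called (1.18-fold, adjusted p = 0.705).

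**Figure D4:**
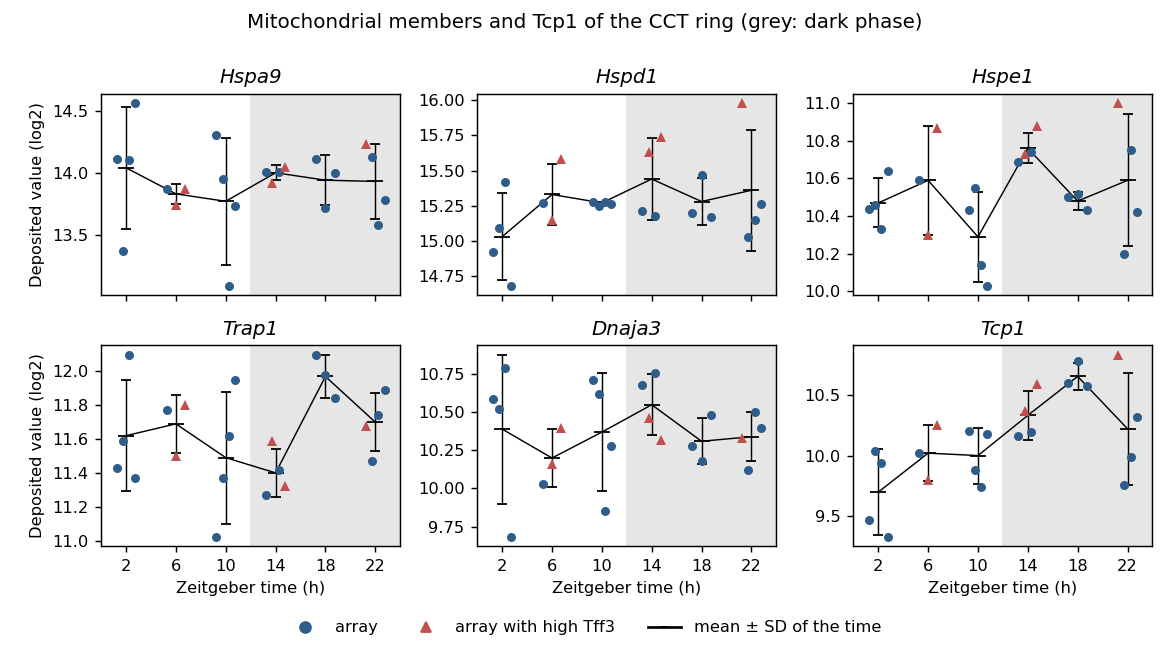
Deposited log2 values of the 5 mitochondrial members and of Tcp1, a subunit of the CCT ring, by zeitgeber time, 1 point per array, with the mean and SD of each time; triangles mark the 5 arrays with high Tff3, grey the dark phase, and each panel has its own axis. The mitochondrial members have fitted spans of 1.12-fold to 1.23-fold. Hspe1 at ZT14 lies above its ZT2 and ZT18 arrays and Trap1 at ZT14 below its ZT18 arrays, although neither was called.

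Between the phases, 14 members were higher in the dark (the mean of ZT14, ZT18 and ZT22) than in the light (the mean of ZT2, ZT6 and ZT10), against 3.25% of all features called in this direction. Limma called 0 of the 33 higher in the light, against 2.02% of all features. At an unadjusted p under 0.05, 0 members were higher in the light and 17 in the dark, against 2001 and 2251 of 22206 features. The median light minus dark difference of the 33 was −0.45, and that of all features was 0.01. The 3 largest differences were those of Hspb1 (−1.80 ± 0.22 SE, 3.49-fold, adjusted p = 1.53e-05), Hsph1 (−1.61 ± 0.25 SE, 3.06-fold, adjusted p = 0.000314) and Hsp90aa1 (−1.43 ± 0.22 SE, 2.69-fold, adjusted p = 0.000313). The other called members were Hspa1b, Hspa4l, Bag3, Dnajb2, Dnajb4, Stip1, Ahsa1, Chordc1, Cacybp, Fkbp4 and Tcp1. The call of Dnajb2 (adjusted p = 0.0498) was lost in 17 of 22 omissions of a single array, with values up to 0.113, that of Hspa1b without ZT18c (0.0503), and that of Tcp1 without ZT6b or ZT18b (up to 0.0563). Without the 5 Tff3-high arrays 9 members were called, all 9 among the 14, and Hspa1b, Dnajb2, Dnajb4, Cacybp and Tcp1 were not. With ranks 9 were called as well, against 603 of 22206 features.

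Between ZT14 and ZT2, times 12 h apart, limma called 12 members higher at ZT14 and 0 lower, against 2.20% and 2.07% of all features. At an unadjusted p under 0.05 these were 21 and 0 members, against 1763 and 1704 of 22206 features. The median difference was 0.62 over the members and −0.01 over all features. Bag3 (2.50), Hspa1b (2.04) and Hsph1 (2.00) differed most, and Hspa1a, Hspa2, Dnajb1, Dnajb4, Chordc1, Cacybp, Fkbp4, Hspb1 and Hspb8 were also called, with log2 differences from 0.86 for Fkbp4 to 1.59 for Dnajb1. Hsp90aa1, with its spread of values at ZT2, was not called (1.12 ± 0.37 SE, adjusted p = 0.0948). Without the 5 Tff3-high arrays 7 of these 12 were called. With ranks limma called 0 members and 0 of all features here and in the other comparisons of 2 times. The call of Hspb1 (adjusted p = 0.0179) was lost without any 1 of ZT2c, ZT2d, ZT14b and ZT14c, with an adjusted p of up to 0.0719, and that of Fkbp4 (0.0192) without ZT2d or ZT14d, with an adjusted p of up to 0.0878.

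**Figure D5:**
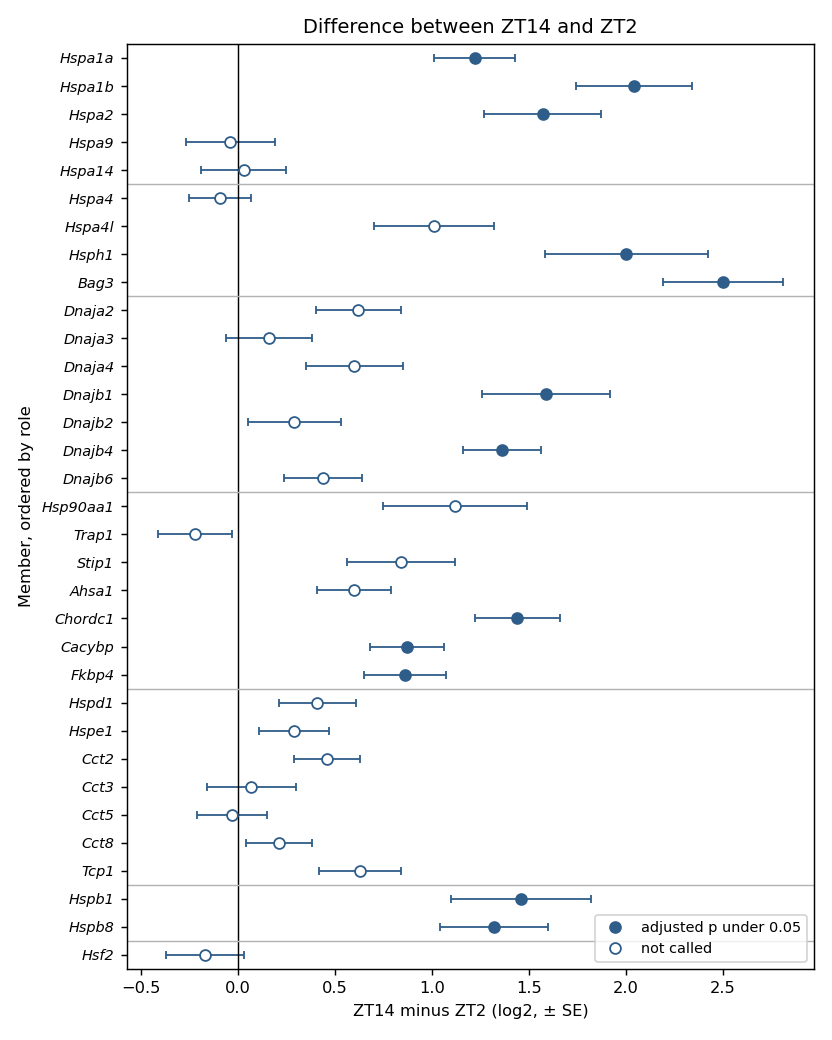
Difference between ZT14 and ZT2 in log2 units (x axis, with limma's SE as bars) for the 33 measured members, ordered by role; filled points passed an adjusted p of 0.05. All 12 filled points lie to the right of 0, with Bag3 at 2.50, and none belongs to a chaperonin.

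Between ZT18 and ZT6, 10 members were higher at ZT18 and 1 lower at an unadjusted p under 0.05, against 1609 and 1383 of 22206 features. Hsph1 (2.20 ± 0.48 SE, 4.59-fold, adjusted p = 0.0232) and Chordc1 (1.03 ± 0.25 SE, 2.04-fold, adjusted p = 0.0417) were called higher at ZT18 and 0 members lower, against 0.743% and 0.392% of all features. This count of 2 rests on single arrays: it was 0 without ZT6b, ZT18a, ZT18b or ZT18c, 1 without ZT10b, ZT10d, ZT22c or ZT22d, and 0 without the 5 Tff3-high arrays. The ZT6 arrays ZT6b and ZT6c bound a wide range, and ZT6b was the lowest of its time for 22 of the 33 members and ZT6c the highest for 19. Between ZT22 and ZT10, 8 members were higher at ZT22 and 2 lower at an unadjusted p under 0.05, against 1760 and 1526 of 22206 features. Limma called Hspb1 (3.06), Hsp90aa1 (1.98), Hspa4l (1.58 ± 0.31 SE, adjusted p = 0.00277), Fkbp4 (1.22) and Chordc1 (0.79) higher at ZT22 and 0 members lower, against 2.15% and 1.15% of all features. This count was 6 without the Tff3-high arrays, where Stip1 was added. The call of Chordc1 was lost without any 1 of ZT10b, ZT10c, ZT10d, ZT22a, ZT22b, ZT22c and ZT22d, with an adjusted p of up to 0.159.

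The step across lights off, and the one after it, were compared because the members' values had shown them, so these counts describe a pattern already seen. They share the ZT14 arrays with each other and with the comparison of ZT14 and ZT2. From ZT10 to ZT14, 14 members rose and 0 fell, against 0.964% and 0.752% of all features. At an unadjusted p under 0.05 these were 19 and 0 members, against 1510 and 1439 of 22206 features. The 14 rose by 1.78-fold for Dnajb4 (0.84 ± 0.20 SE) to 5.00-fold for Hsph1 (2.32 ± 0.42 SE). Hsp90aa1 (4.90-fold), Hspb1 (4.52-fold), Bag3 (4.16-fold) and Hspa1b (4.05-fold) were next. Hspa1a was not called at this step (0.64, adjusted p = 0.131), and its ZT10 arrays already lay above all ZT2 arrays. The call of Dnajb4 (adjusted p = 0.0248) was lost without any 1 of ZT10a, ZT10b, ZT10c, ZT14b and ZT14d, with values up to 0.116. From ZT14 to ZT18 Hspa1b fell by 2.32, Dnajb1 by 1.81, Hspb8 by 1.51 and Hspa1a by 1.08 on the log2 scale, and limma called 0 members higher. Of all features 0.185% were called lower and 0.360% higher. At an unadjusted p under 0.05, 8 members were lower and 1 higher, against 951 and 1278 of 22206 features. Hsp90aa1 (0.23), Stip1 (0.13), Hspa4l (0.51) and Fkbp4 (−0.12) were not called at that step. Without the 5 Tff3-high arrays 9 members were called from ZT10 to ZT14 and 1, Hspa1b, from ZT14 to ZT18. The count of 4 from ZT14 to ZT18 was 1 without ZT14b, ZT14d, ZT18b or ZT18c and 2 without ZT18a.

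ZT14 arrays differed among themselves. ZT14c was the lowest of the ZT14 arrays for 9 of the 12 members called between ZT14 and ZT2, and the Tff3-high arrays ZT14b and ZT14d were the highest for 6 and 4 of them. Of the marker lists, the mean of 5 cholangiocyte markers, Tff3 among them, ran from 4.99 to 7.12 at ZT14 and from 4.79 to 5.98 at ZT2, with 0 of 5 called between these times. For 5 markers of sinusoidal endothelium it ran from 8.96 to 9.46 at ZT14 and from 9.57 to 9.68 at ZT2, with 2 called lower at ZT14. For 5 Kupffer cell markers it ran from 6.89 to 7.63 and from 7.38 to 7.86, with 1 called lower. For 4 adipocyte markers it ran from 4.17 to 5.00 at ZT14 and from 3.58 to 3.88 at ZT2, without overlap. Of these, Cidec, which encodes a lipid droplet protein, was called higher at ZT14 (2.95, adjusted p = 0.0288), and Adipoq, Plin1 and Lep had means at or below the lower quartile of all features. The part of these lists in the chaperone values was not tested.

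Members of 1 machine varied together to different degrees across the 22 arrays, which share their time groups. Among the 7 genes of HSP90 and its co-chaperones the median Pearson correlation of the 21 pairs was 0.79, and 0.47 after each time mean was subtracted. Over all 528 pairs of members these values were 0.32 and 0.19. They were 0.20 and 0.26 among the 5 HSP70 genes, 0.15 and 0.10 among the 5 mitochondrial members, and 0.32 and 0.35 among the 5 CCT subunits. The spread within a time differed between times as well: the median SD over the HSP90 group was 0.36, 0.49 and 0.33 for the light-phase times in order (ZT2 first), and 0.14, 0.13 and 0.17 for those of the dark phase. Over all 33 members it was 0.33, 0.30 and 0.27 in the light and 0.23, 0.17 and 0.32 in the dark, so that ZT22 was near ZT2 and ZT6.

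The genes outside the set whose values were most like those of Hsph1 over the 22 arrays were Pnpla6 (r = 0.91), a lysophospholipase, Srprb (0.90), a subunit of the signal recognition particle receptor, Srm (0.90), the spermidine synthase, and Tmed2 (0.87), a cargo receptor between endoplasmic reticulum and Golgi. Samd1, Ywhag, Inhbc, Ubxn2a, Slc35e1 and Rap2a followed (0.82 to 0.86). Srm had a fitted span of 5.61-fold with a peak at ZT16.3. These genes were picked for their likeness from all named genes, and the values are a description.

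Members with and without an element stood on both sides of the calls. Of 12 rhythmic members with a window 8 held a 2-unit element (66.7%), and of 19 that were not called 7 did (36.8%). Among these 7 were Hspd1 and Hspe1, whose 3-unit elements are the same stretch of bases counted for both genes. Rhythmic members without one in their window were Hspa2, Hspa4l, Stip1 and Tcp1. Dnajb1, which was high at ZT14 in every array, held none in these windows either. Of 12 members with a window that were called between ZT14 and ZT2, 9 held a 2-unit element (75%), and of 19 not called 6 did (31.6%). The share of elements was not tested against either set of calls. Hspa8, Hspa9, Hsp90aa1, Hsp90ab1 and Hsf1 had no entry.

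Chaperone genes outside the set were read from 3 further lists, and a list of cold-inducible transcripts was set beside them. Of 30 further cytosolic chaperones and co-chaperones 2 were rhythmic (6.67%): the glucocorticoid-induced immunophilin Fkbp5, which went from 10.11 at ZT2 to 12.96 at ZT14 (24 h span 6.50-fold, peak ZT14.2, adjusted p = 1.21e-07), and the small heat-shock protein Cryab (1.72-fold, peak ZT16.7). Ptges3 (1.10-fold), Cdc37 (1.32-fold) and Bag1 (1.22-fold), which also act on HSP90 or HSP70, were not called. Of 14 genes of mitochondrial protein quality control 2 were rhythmic. Clpx, which unfolds clients for the matrix protease ClpP, measured 14.04 at ZT2, 10.50 at ZT10 and 14.23 at ZT22 (14.2-fold, peak ZT23.3, adjusted p = 3.32e-13), and Atf5, a regulator of the mitochondrial stress response, peaked at ZT2.11 (3.07-fold).

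Of 16 genes of the endoplasmic reticulum, the compartment with its own HSP70 and HSP90, 2 were rhythmic, Herpud1 (3.11-fold, peak ZT12.4) and the J-domain gene Dnajb9 (2.49-fold, peak ZT14.9). Its HSP70 Hspa5 had a fitted span of 2.01-fold (adjusted p = 0.116) and its HSP90 Hsp90b1 of 1.20-fold (adjusted p = 0.732), and the 24 h test called neither. The means of Hspa5 ran from 16.56 at ZT10 to 18.13 at ZT18. Limma's test of any difference among the 6 times called 5 of these 16 genes, against 6.14% of all features. It called 2 of the 30 further cytosolic genes and 2 of the 14 of mitochondrial quality control. All 3 genes of the cold-inducible list were rhythmic. Cirbp was highest at ZT2 (7.85, against 6.43 at ZT14) and Srsf5 too (13.93, against 12.81), the reverse of the order of the members called between these times, while Rbm3 was higher at ZT14 (13.19) than at ZT2 (11.70).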

How the data were processed

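RNA of 22 livers (100 ng per sample, per the labels' protocols) was read on Clariom S arrays, and the authors deposited 1 log2 expression value per feature and array. For the base of the logarithm, background correction, normalization and genome build: not given in the sources used here. Log2 was read from the range of 1.68 to 19.87. With arrays, which have no read depth, precision depends on their number. Arrays were grouped by labelled time, and 0 pairs of arrays were identical (correlations 0.976 to 0.994). The letters that tell arrays of a time apart do not pair them: the median correlation of deviations was 0.00 for the same letter and 0.00 for different letters.

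Features were named through the platform annotation (19572 with 1 symbol, 2634 with none). Models were fitted to all 22206 features without a filter in R 4.3.3 with limma 3.58.1 (lmFit, eBayes), and p-values were adjusted by Benjamini-Hochberg over every feature (threshold 0.05). Rhythm was tested by limma's moderated F statistic for a cosine and sine with a period of 24 h, and the fold span is 2 raised to the doubled amplitude. Contrasts were taken in a fit with 1 mean for each of the 6 times. The fits were tested on simulated data with 200 changed features. Promoters were read from the RefSeq table (GRCm38.p6) with Python 3.11.15 and pandas 2.3.3. A gene with several starts counts as holding an element if any of its windows does.

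The members and lists were chosen with earlier results of these data known. Named with fit and test were up to 12 rhythmic members by amplitude and up to 3 called members per contrast and direction, with the other members shorter. The contrasts from ZT10 to ZT14 and from ZT14 to ZT18, the fits without the 5 arrays with Tff3 above 8, and the other members given with array values were chosen after values were seen. Alternatives were quantile normalization, median centring, bright features only, a trended robust prior, array weights, blocking on the letter, omission of each array, a threshold of 0.01, ranks, other shapes of the daily pattern, and fits of fewer groups. The planned comparison of protein ends was not run.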

Additional observations from a re-analysis of the deposited data

Results flagged for a closer look

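In 132 groups of 4 arrays (the 33 members at 4 times) an array that stood apart from the others of its time was looked for with Dixon's test, and 6 did, where chance alone gives about 1 in 20, or 6.60. Hspa4l measured 7.74 in ZT10b, against 8.09 to 8.14 in the other ZT10 arrays. Cacybp measured 8.89 in ZT10b, against 9.37 to 9.45. Hspb8 measured 10.61 in ZT10c, against 11.36 to 11.44. Dnaja4 measured 8.53 in ZT14a, against 7.64 to 7.73. Cct8 measured 13.62 in ZT14b, against 13.77 to 13.79. Cct3 measured 10.82 in ZT22b, against 11.54 to 11.64. The times with 3 arrays were not tested.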

How the results depend on the processing

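The count of members with a 24 h rhythm (13) lay between 10 and 16 under the other planned settings and was 7 with ranks. With ranks 9 members differed between light and dark, against 603 of 22206 features. On ranks 0 members differed between ZT14 and ZT2, ZT18 and ZT6, ZT22 and ZT10, ZT14 and ZT10, or ZT18 and ZT14, where ranks also left 0 of all features called. Without the 5 Tff3-high arrays, an alternative chosen after seeing the data, the counts were 9 between light and dark, 7 between ZT14 and ZT2, 0 between ZT18 and ZT6, 9 between ZT14 and ZT10 and 1 between ZT18 and ZT14. Between ZT18 and ZT6 the count of 2 became 1 with the trended robust prior, 1 in a fit of these 2 times alone and 0 at a threshold of 0.01, and between ZT18 and ZT14 it was 1 at that threshold. Among bright features 9 members differed between ZT22 and ZT10, 7 higher and 2 lower at ZT22 (Hspa1a and Dnajb6), and the trended robust prior and the array weights each gave 6 higher and 1 lower (Dnajb6 and Hspa1a, respectively), against 0 lower as reported. The cause of these shifts was not tested, and some of these settings also leave fewer arrays or features.

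With single arrays left out, the counts ran from 11 to 16 for the rhythm, 12 to 15 between light and dark, 10 to 14 between ZT14 and ZT2, 0 to 2 between ZT18 and ZT6, 4 to 6 between ZT22 and ZT10, 13 to 15 between ZT14 and ZT10 and 1 to 5 between ZT18 and ZT14. With the letter as a replicate block the counts were 12, 15, 12, 1, 4, 14 and 4 in the same order, although the letters do not pair the mice. Of 23 fits of single members 0 were reversed under any setting run, and 13 were weaker with ranks and 3 without the Tff3-high arrays. Each member had 1 feature, so the alternative of another feature was not run. With 3 or 4 arrays per time and no detection calls, small differences and levels near background cannot be resolved.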
